A study of Mus musculus with 26 samples.

Results

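The Trim genes described here are the members of the tripartite motif family in mouse liver. They were chosen by name alone, as every gene of the count table whose symbol is Trim followed by digits and at most 2 letters. This gave 67 genes of the 55401 in the table, and 1 further gene of that form is not reported. Liver RNA was sequenced from male C57BL/6 mice that started a high-fat diet at 4 weeks of age and stayed on it for 18 weeks; the series design adds that the diet was high in cholesterol. Untreated mice on this diet formed 1 group (untreated HFD, 9 libraries). Mice of the other group, on the same diet, received UCMSC-Exos, natural exosomes derived from UCMSCs, into the tail vein at intervals of 72 hours over 8 weeks (8 libraries). The labels number the libraries of a group as replicate mice. Exosomes are small membrane vesicles that cells release. The labels list no injection for untreated mice. An effect of the exosomes and one of the injections, the cages or the cohorts therefore cannot be told apart. The remaining 9 of the 26 samples belong to another treatment, LSCR, and were not analysed here.

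TRIM proteins are built from a RING domain, 1 or more B-boxes and a coiled coil, followed by a C-terminal part that differs between subfamilies and binds the target. The RING recruits a ubiquitin-charged E2 enzyme, so most TRIM proteins are ubiquitin ligases. Many members with a PRY-SPRY domain are induced by interferons and act against viruses or tune innate signalling, while others work in transcriptional repression, in the sarcomere of striated muscle, in neurons or in developing red cells. In liver, both hepatocytes and resident macrophages respond to interferon.

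Libraries held 32.9 to 36.1 M counted reads, where each mate of a pair is counted. In the quasi-likelihood test of edgeR over 16238 genes, 20.2% passed an adjusted p of 0.05, 9.73% higher and 10.4% lower in UCMSC-Exos, and the median log2 fold change was -0.02. The share that passed was 35.7% without UCMSC-Exos 9, 12.7% without UCMSC-Exos 2 and 12.2% without UCMSC-Exos 3. Some libraries stood apart. Summed skeletal muscle markers reached 13476 CPM (read counts scaled by the effective size of the library) in untreated HFD 9 and 5.44 to 8.39 CPM elsewhere, with all 12 highest in that library. Summed exocrine pancreas markers reached 12538 CPM in untreated HFD 3 and 8.28 to 18.4 CPM elsewhere, with all 9 highest there. Summed cholangiocyte markers were 585 CPM in UCMSC-Exos 9 and 48.6 to 127 CPM in the other treated libraries. The hepatocyte markers that define the tissue were present throughout, at a summed 33349 to 71806 CPM.

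Trim genes fell far more often than they rose. Of the 67, 42 passed the filter on low counts (62.7%). Of these 42, 12 were lower in UCMSC-Exos (28.6%, against 10.4% of all genes tested) and 1 was higher (2.38%, against 9.73%), while 29 did not pass. Their median log2 fold change was -0.25, and 34 of the 42 values were negative. The falls were moderate, from 1.32-fold to 2.45-fold. In 5 of the 42 (11.9%) every treated library lay below every untreated one, as it did in 0.807% of all genes tested. In 0 of the 42 every treated library lay above every untreated one, as it did in 0.493% of all genes tested. In these bulk samples, fewer cells of a type and less RNA per cell cannot be told apart.

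**Figure D1:**
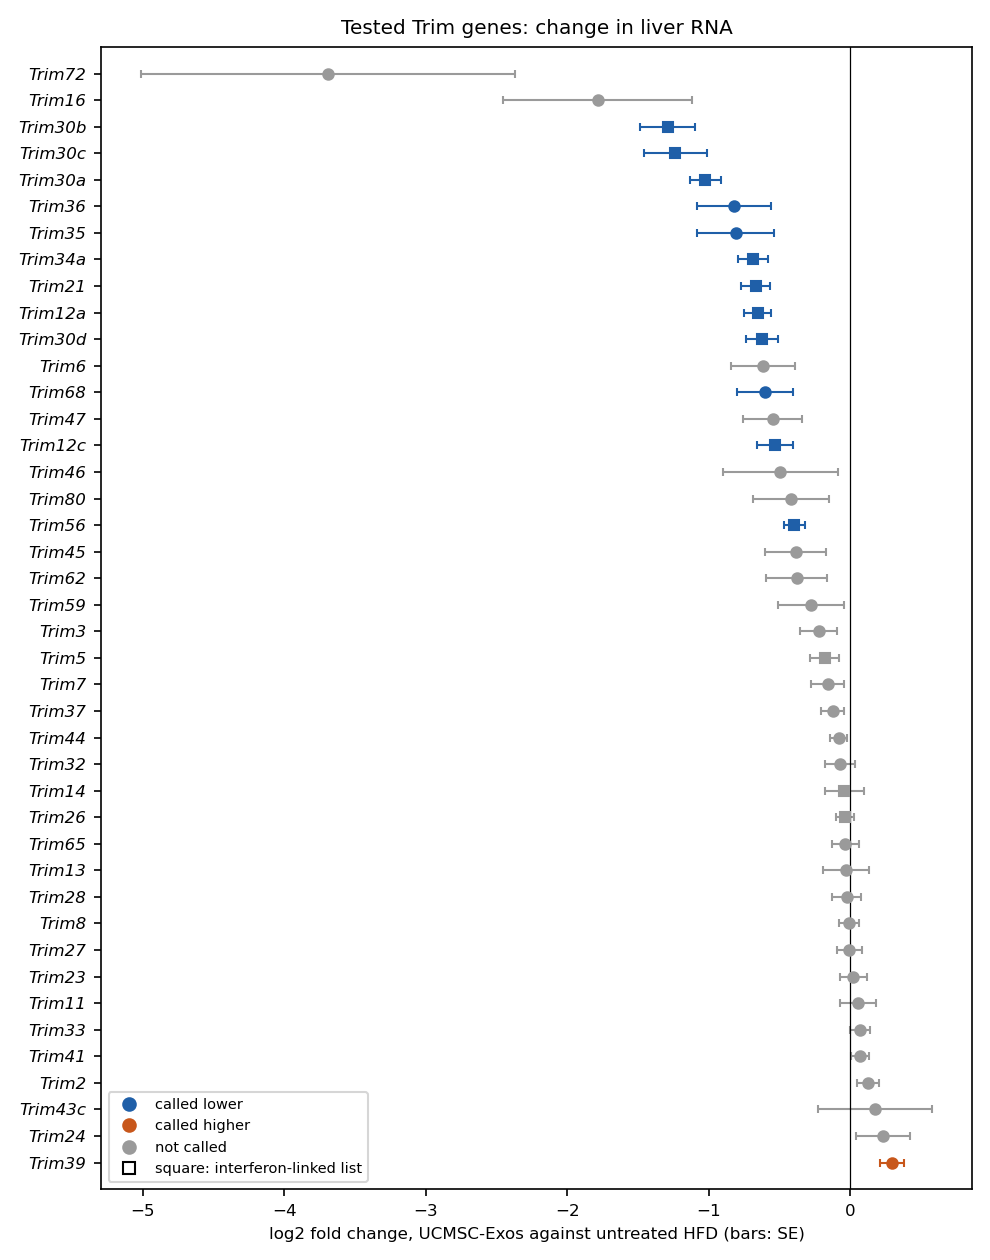
Log2 fold change of each of the 42 tested Trim genes, UCMSC-Exos against untreated HFD, with bars of 1 SE; blue marks genes called lower, orange the gene called higher, grey those not called, and squares the interferon-linked list. Of the 12 tested squares 9 are blue, the only orange point is Trim39, and the widest bar belongs to Trim72.

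On a per-length scale (RPKM, the CPM divided by the exon length in kilobases), the most abundant members of untreated liver were Trim28 at 21.3 ± 4.82 (SD, n = 9), Trim44 at 17.1 ± 1.22, Trim30a at 15.5 ± 1.73, Trim8 at 15.1 ± 1.58 and Trim41 at 13.9 ± 0.899. Neighbours among these 5 differed by less than the larger of their SDs. Trim12c and Trim30d followed at 10.4 ± 1.31 and 9.57 ± 1.2, and Trim26 at 9.05 ± 0.604. Trim30a was thus the most abundant interferon-linked member in untreated liver. In UCMSC-Exos its level was 7.63 ± 1.61 RPKM (SD, n = 8), below that of Trim26 at 8.81 RPKM, while Trim28 was at 20.9 RPKM.

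The fall lay mostly in the members listed as antiviral and interferon-linked. The list was chosen with earlier results of these data known, and the counts depend on which genes it names. Genes not in it include Trim6, a ligase of the interferon response (log2 fold change -0.62), and Trim8, a regulator of STAT signalling (-0.01). This list holds 13 genes, of which 12 were tested; 9 fell, 0 rose, and the median log2 fold change was -0.64. All 12 values were negative. Of the 9, Trim30b, Trim30c and Trim30a, mouse relatives of primate TRIM5, had the lowest log2 fold changes. Trim30a (ENSMUSG00000030921.17), known for restraining NF-kB signalling downstream of Toll-like receptors, had a lowest, median and highest level of 52.1, 63.9 and 76.1 CPM in untreated mice and 25.2, 28.6 and 41.4 CPM in UCMSC-Exos. The groups did not overlap. The means were 63.8 ± 7.10 CPM (SD, n = 9) and 31.4 ± 6.63 CPM (SD, n = 8), a log2 fold change of -1.03 ± 0.11 (SE; edgeR adjusted p = 1.03e-05).

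Trim30b ranged over 3.31, 4.40 and 5.57 CPM in untreated mice (lowest, median, highest) and over 0.893, 1.97 and 2.55 CPM in UCMSC-Exos, again without overlap. Its log2 fold change was -1.29 ± 0.20 (edgeR adjusted p = 0.000259). Trim30c was the lowest of the group, with 1.22, 2.74 and 4.35 CPM against 0.940, 1.10 and 1.71 CPM. Only 1 untreated library, untreated HFD 1, fell within the treated range. The log2 fold change of Trim30c was -1.24 ± 0.22 (edgeR adjusted p = 0.00119). Trim30d, by contrast, was an abundant transcript with 29.9, 34.9 and 42.1 CPM against 18.6, 21.6 and 32.3 CPM. Its groups met at UCMSC-Exos 5, which was higher than 2 untreated libraries. The log2 fold change of Trim30d was -0.63 ± 0.11 (edgeR adjusted p = 0.0012).

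The Trim12 and Trim34 genes, close neighbours and relatives of Trim30 and Trim5, fell as well. Trim12a had 21.4, 23.1 and 28.9 CPM in untreated mice and 12.4, 14.1 and 20.02 CPM in UCMSC-Exos, and the groups did not overlap (log2 fold change -0.65 ± 0.10, edgeR adjusted p = 0.000213). Trim34a had 12.3, 13.7 and 15.6 CPM against 7.17, 7.90 and 12.1 CPM, also without overlap (log2 fold change -0.69 ± 0.10, edgeR adjusted p = 0.000258). Trim12c had 33.9, 39.2 and 46.3 CPM against 20.1, 23.1 and 38.7 CPM. UCMSC-Exos 5 and 6 lay inside the untreated range of Trim12c, and its log2 fold change was -0.53 ± 0.13 (edgeR adjusted p = 0.00869). These copies resemble each other closely and reads that map to several places were not counted, so how a change divides between the copies is uncertain.

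Trim21 and Trim56 are single-copy members that fell. Trim21 (ENSMUSG00000030966.13) is the cytosolic antibody receptor that marks antibody-coated virus for the proteasome. It had 14.3, 18.8 and 24.5 CPM in untreated mice and 9.35, 11.4 and 13.9 CPM in UCMSC-Exos, with no overlap. The means were 18.3 ± 2.85 CPM (SD, n = 9) and 11.5 ± 1.58 CPM (SD, n = 8), a log2 fold change of -0.67 ± 0.10 (edgeR adjusted p = 0.000279). Trim56, a ligase of antiviral RNA and DNA sensing, was among the more abundant members, with 53.6, 57.6 and 67.1 CPM against 37.1, 45.3 and 54.7 CPM. UCMSC-Exos 9 was the 1 treated library inside the untreated range. Trim56 had the smallest log2 fold change of the 9, -0.40 ± 0.07 (edgeR adjusted p = 0.00134).

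**Figure D2:**
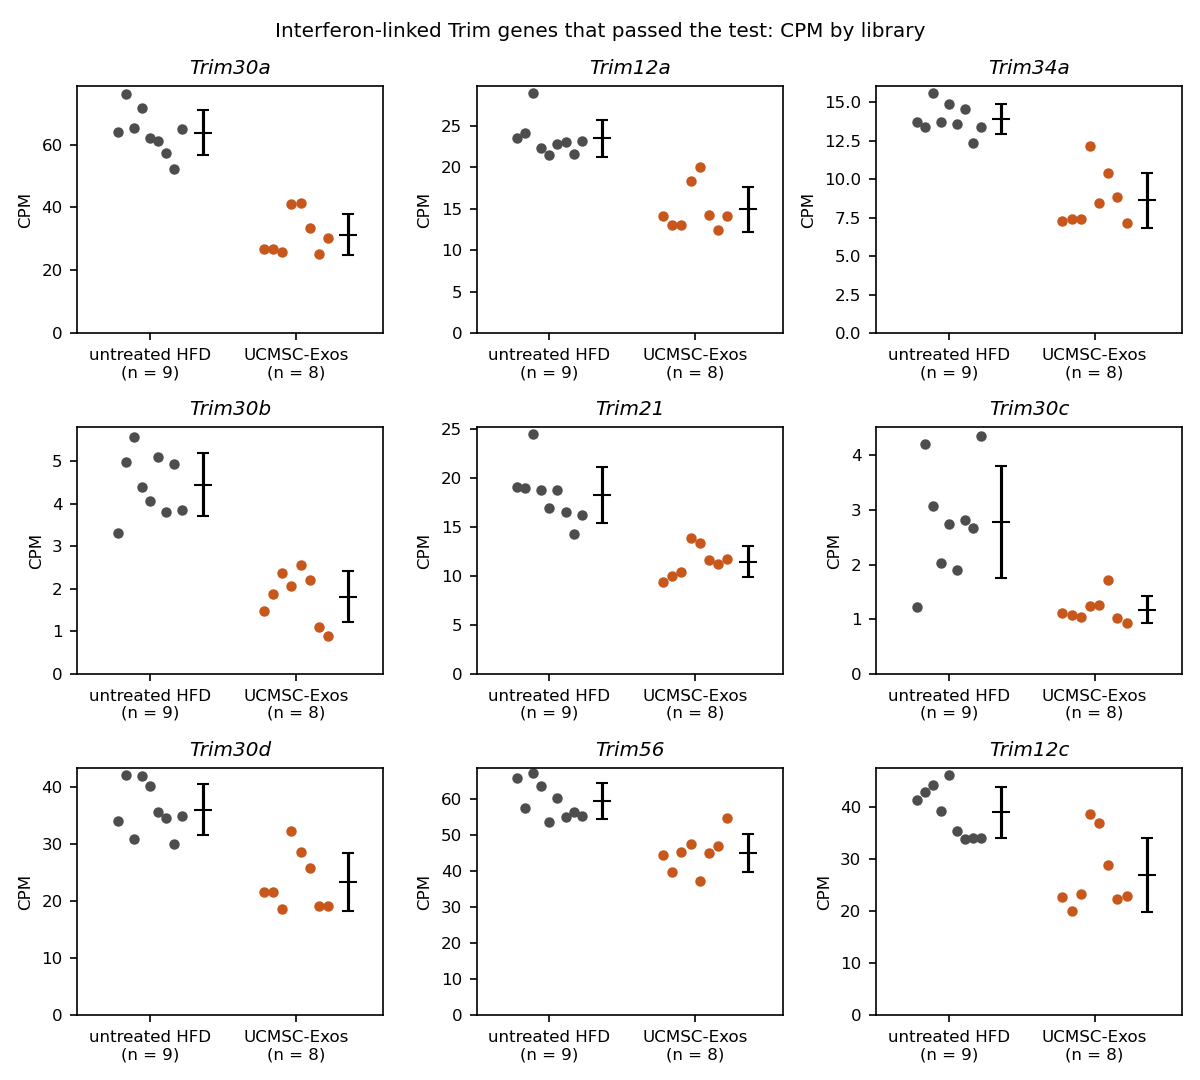
CPM by library for the 9 interferon-linked Trim genes that passed the test, untreated HFD (grey, n = 9) and UCMSC-Exos (orange, n = 8), in replicate order; the bar beside each group is its mean with 1 SD and each axis starts at 0. Trim30a, Trim12a, Trim34a, Trim30b and Trim21 show no overlap, and UCMSC-Exos 5 and 6 are the highest orange points for Trim30a, Trim12a, Trim21, Trim30d and Trim12c.

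The other 3 tested interferon-linked members did not pass. Trim5, the closest mouse namesake of the primate factor that recognises retroviral capsids, had 5.26, 5.61 and 7.14 CPM in untreated mice and 4.40, 5.15 and 6.44 CPM in UCMSC-Exos (log2 fold change -0.18 ± 0.10, edgeR adjusted p = 0.213). Trim26, a ligase that limits interferon-beta production, had 53.8, 62.6 and 68.7 CPM against 55.9, 58.4 and 72.6 CPM (log2 fold change -0.04 ± 0.06). Trim14, an adaptor of mitochondrial antiviral signalling that lacks a RING, had 26.7, 34.9 and 50.9 CPM against 23.9, 31.1 and 47.1 CPM (log2 fold change -0.04 ± 0.14). Of the exonic bases of Trim14, 31.3% also belong to Nans on the opposite strand, and counting did not use strand. Trim34b reached at most 13 reads in a library and was not tested; without the filter on low counts it was called lower. A missed threshold does not show that these genes were unaffected.

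Some cell type markers differed between the groups too, where 9.73% of all genes tested were higher and 10.4% lower. The part of these cell types in the fall of the interferon-linked members was not tested. Of 8 tested hepatocyte markers, 7 rose and 1 fell, with summed levels of 33349 to 52647 CPM in untreated mice and 39083 to 71806 CPM in UCMSC-Exos. Of 11 Kupffer cell and macrophage markers, 2 rose and 2 fell, with sums of 1078 to 2622 and 1715 to 2234 CPM. Of 6 sinusoidal endothelial markers, 1 rose, with sums of 424 to 484 and 374 to 547 CPM. No marker of these 3 lists was at 0 in any library. Of 5 tested B and plasma cell markers 1 rose, and the sums went from between 4.25 and 8.17 CPM to between 12.1 and 19.8 CPM, with Mzb1 at 0 in 1 library. Of 8 T and NK cell markers 1 rose, with sums of 12.6 to 19.9 and 12.1 to 35.2 CPM.

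The promoters of these genes were read for the letters at which interferon-activated factors are known to bind. An interferon-stimulated response element (ISRE) holds a core of 2 copies of GAAA with any 2 bases between them, searched on both strands in RefSeq windows of GRCm38.p6 that run from 250 bases before to 50 bases after a gene's start. A window was at hand for 52 of the 67 Trim genes. A gene was counted where any of its windows held the letters. The core letters stood in 6 of 10 Trim genes called lower that had a window (60%) and in 3 of 22 tested Trim genes not called lower (13.6%). They stood in 8.19% of all genes called lower, in 3.88% of all tested genes and in 3.99% of all 27025 genes with a window. Counted by window, the share was 3.44% of 32851. The genes with the letters were Trim12a, Trim12c, Trim21, Trim30a, Trim30d and Trim34a among those that fell, and Trim2, Trim5 and Trim26 among those not called. Several of these promoters are copies of each other, so they are not separate instances. A second motif, the gamma-activated site (GAS) TTCNNNGAA, stood in 1 of the 10 genes, Trim30c, and in 9.55% of all genes with a window. A match is a description of the letters and not evidence of binding.

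The stretches below are shown because they carry these letters in genes that fell and in those that did not. Each runs 5′ to 3′ on the strand of its gene, and capitals mark the core letters, which read TTTC in place of GAAA where the match is on the other strand. The Trim21 stretch, chr7:102565447-102565476 on the minus strand, holds 2 overlapping matches just after the start; those of Trim34a (chr7:104244457-104244486, plus strand) and Trim12a (chr7:104315466-104315495, minus strand) also lie after the start. Those of Trim12c (chr7:104353350-104353403), Trim30a (chr7:104465195-104465254) and Trim30d (chr7:104507856-104507915), all on the minus strand, lie before it. So do those of Trim5 (chr7:104288121-104288180, minus strand) and Trim26 (chr17:36836961-36837026, plus strand). Not shown are the Trim2 match, after its start, and another Trim30a match, after a different start of that gene (chr7:104446096-104446125).
Trim21: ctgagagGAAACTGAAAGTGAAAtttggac
Trim34a: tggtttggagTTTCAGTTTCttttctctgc
Trim12a: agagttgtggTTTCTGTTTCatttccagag
Trim12c: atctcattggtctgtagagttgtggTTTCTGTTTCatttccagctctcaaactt
Trim30a: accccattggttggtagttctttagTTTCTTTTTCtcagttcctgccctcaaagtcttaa
Trim30d: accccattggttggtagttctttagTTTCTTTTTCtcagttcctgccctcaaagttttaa
Trim5: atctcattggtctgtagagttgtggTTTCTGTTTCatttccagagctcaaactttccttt
Trim26: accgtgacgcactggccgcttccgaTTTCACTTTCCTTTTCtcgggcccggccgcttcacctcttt
The Trim30a and Trim30d stretches were the same at 59 of 60 bases, and both genes fell. The Trim5 and Trim12c stretches were the same at 52 of 54 bases, although Trim12c passed the test and Trim5 did not; whether their changes differ was not tested.

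Most of the genes that fell are neighbours. Chromosome 7 carries 16 of the 67 members, of which 14 were tested and 9 fell, while 3 of the 28 tested members on other chromosomes fell. Of all 1259 tested genes of chromosome 7, 10.2% were lower. A cluster of 10 Trim genes spans 289 kb of mm10, from 104218793 at the start of Trim6 to 104507849 at the end of Trim30d. Of its 9 tested members 7 fell, namely Trim34a, Trim12a, Trim12c, Trim30b, Trim30c, Trim30a and Trim30d, while Trim6 and Trim5 did not pass. Trim6, a ligase that builds free ubiquitin chains in the interferon response, had 0.826, 1.27 and 1.63 CPM in untreated mice and 0.401, 0.965 and 1.01 CPM in UCMSC-Exos (log2 fold change -0.62 ± 0.23, edgeR adjusted p = 0.0593). The span also holds 8 other gene models, most with almost no reads. Of these, 2 were tested and 1, Gm16464, which lies inside the Trim30d gene on the same strand, was lower (log2 fold change -1.18 ± 0.36, edgeR adjusted p = 0.0297). Trim21 and Trim68, both lower, lie 1.53 Mb or more outside the cluster.

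**Figure D3:**
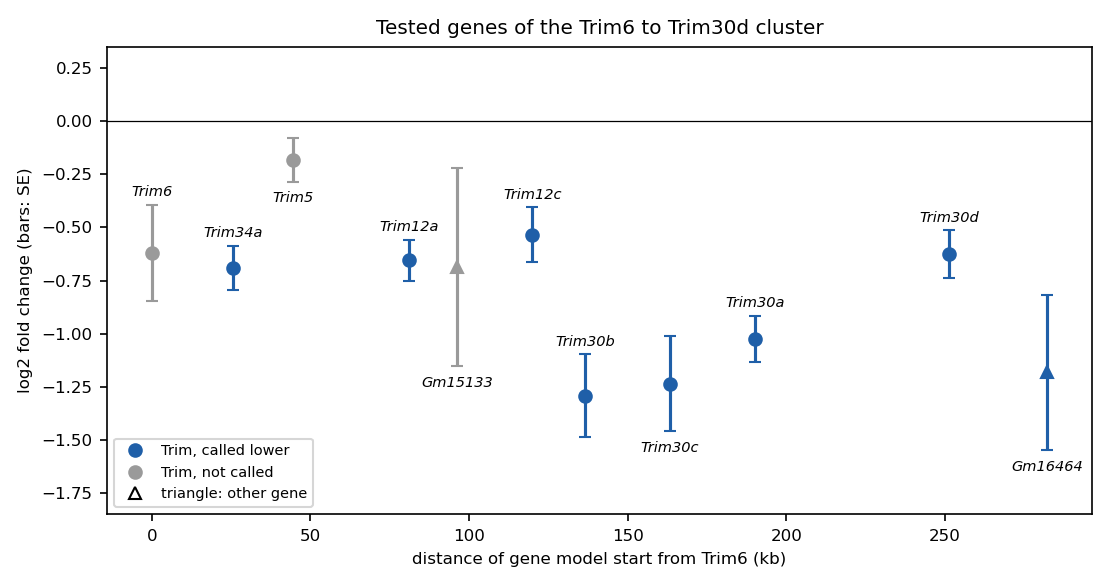
Log2 fold change with 1 SE for the 11 tested genes of the Trim6 to Trim30d cluster, by distance of the gene model's start from that of Trim6; circles are Trim genes, triangles other genes, blue called lower and grey not called. All points lie below 0, and Trim30b, Trim30c and Trim30a are the lowest circles.

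Trim36, Trim68 and Trim35 also fell, but they rest on less even groups. Trim36, a ligase associated with microtubules, had 1.77, 2.29 and 3.60 CPM in untreated mice and 0.708, 1.17 and 3.43 CPM in UCMSC-Exos (log2 fold change -0.82 ± 0.26, edgeR adjusted p = 0.0343). Trim68, a coactivator of the androgen receptor, had 2.84, 3.67 and 4.55 CPM against 1.58, 2.09 and 4.26 CPM (log2 fold change -0.60 ± 0.20, edgeR adjusted p = 0.0369). Trim35, a ligase linked to apoptosis and to pyruvate kinase M2, had 15.3, 22.4 and 54.4 CPM against 9.37, 12.3 and 31.8 CPM (log2 fold change -0.81 ± 0.27, edgeR adjusted p = 0.0443). For all 3, the highest treated library was UCMSC-Exos 9, which lay above the untreated median, while the other 7 treated libraries lay below it. Trim47, not called, had the same pattern, with 26.2 CPM in UCMSC-Exos 9 and 8.42 to 13.3 CPM in the other treated libraries (log2 fold change -0.55 ± 0.21, edgeR adjusted p = 0.0701).

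The calls of these genes depended on single libraries and on the fit. With surrogate variables all 3 were lost: the log2 fold change was -0.55 for Trim36 (edgeR adjusted p = 0.126), -0.25 for Trim68 (0.425) and -0.21 for Trim35 (0.166). Without the filter on low counts all 3 were lost as well (edgeR adjusted p = 0.0538, 0.0631 and 0.0997). With both untreated HFD 3 and 9 left out, Trim68 (0.0834) and Trim35 (0.0947) were lost. Without UCMSC-Exos 9 the edgeR adjusted p was 0.000114 for Trim36, 0.00169 for Trim68 and 0.00134 for Trim35. Trim36 lost its call without any 1 of untreated HFD 1, 4 and 6 or of the other 7 treated libraries (edgeR adjusted p from 0.0553 to 0.0702). Trim68 lost it without any 1 of untreated HFD 1, 2, 3, 6, 7 and 9 or of UCMSC-Exos 2, 3, 5, 6, 7 and 8 (0.0501 to 0.0754). Trim35 lost it without any 1 of untreated HFD 1, 2, 6, 7 and 9 or of UCMSC-Exos 1, 2, 3, 5, 6, 7 and 8 (0.0549 to 0.0897). Among treated libraries, cholangiocyte markers were also highest in UCMSC-Exos 9, at a summed 585 CPM against 48.6 to 127 CPM in the others. In untreated mice the marker sum ran from 119 to 522 CPM and was highest in untreated HFD 1, 6 and 7. In those libraries, in that order, Trim36 was at 3.60, 3.02 and 1.77 CPM (untreated median 2.29 CPM). Trim68 was at 3.71, 3.67 and 3.58 CPM there (median 3.67 CPM) and Trim35 at 26.7, 27.3 and 27.3 CPM (median 22.4 CPM). The single highest untreated values of Trim36, Trim68 and Trim35 were in untreated HFD 1, 3 and 9. The 6 markers reported here had counts in every library, and their log2 fold changes lay from -1.31 for Cldn7 to -0.16 for Sox9 (edgeR adjusted p from 0.134 to 0.755). Their part in these 3 falls was not tested.

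**Figure D4:**
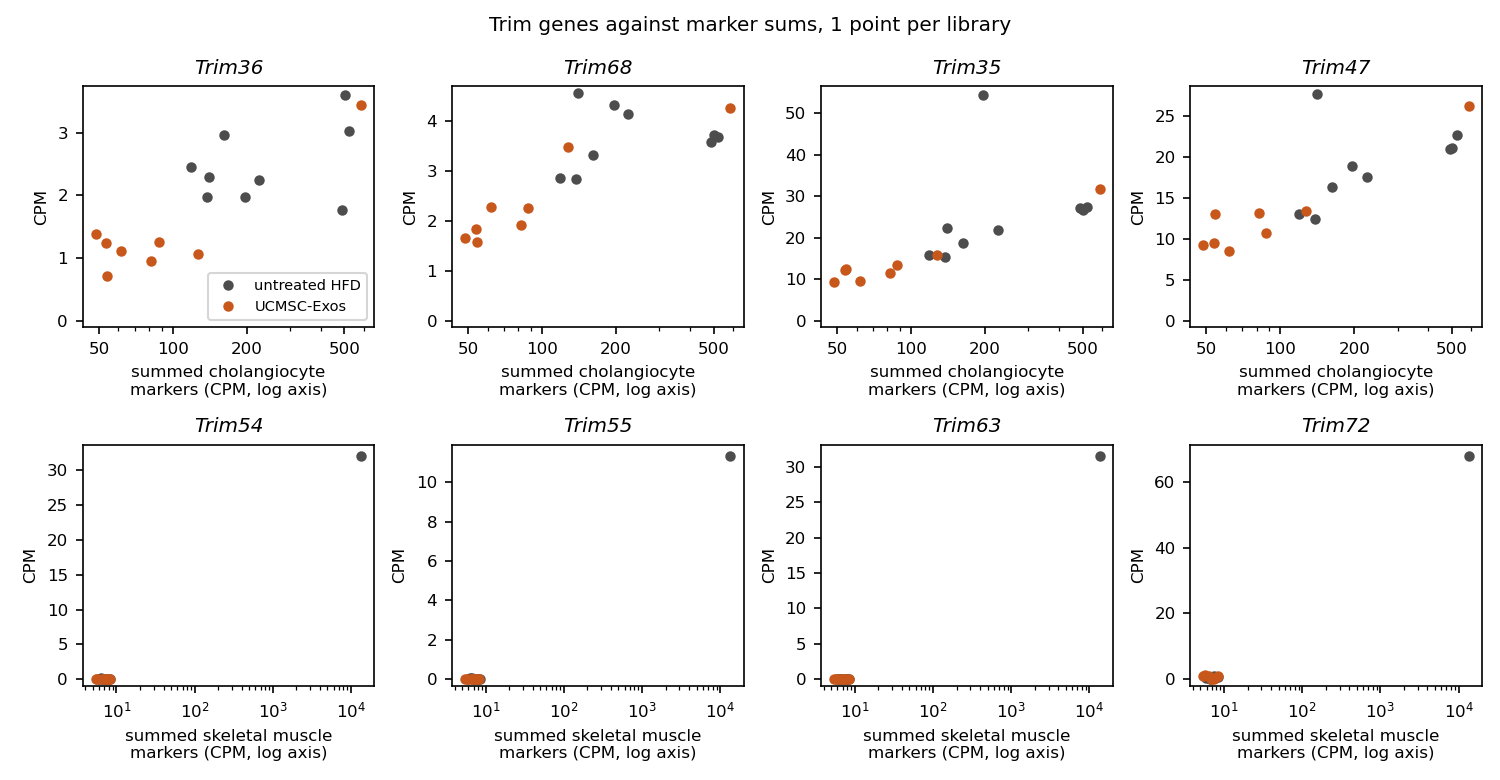
CPM of 8 Trim genes in each library against summed cholangiocyte markers (upper row, log axis) and summed skeletal muscle markers (lower row, log axis), untreated HFD in grey and UCMSC-Exos in orange. In the upper row the orange point farthest to the right is UCMSC-Exos 9 at 585 CPM of markers; in the lower row the single grey point at 13476 CPM of markers is untreated HFD 9, and the highest value of Trim54, Trim55, Trim63 or Trim72 in any other library is 1.17 CPM.

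The 1 member that rose was Trim39, a ligase that restrains the anaphase-promoting complex. It had 18.8, 22.3 and 24.5 CPM in untreated mice and 19.1, 28.3 and 31.2 CPM in UCMSC-Exos. Of the 8 treated libraries, 7 lay above the untreated median, and the lowest, UCMSC-Exos 8, lay near the bottom of the untreated range. The means were 22 ± 1.85 CPM (SD, n = 9) and 26.9 ± 4.04 CPM (SD, n = 8), a log2 fold change of 0.29 ± 0.09 (edgeR adjusted p = 0.0257). Trim39 lost the call without UCMSC-Exos 1 (edgeR adjusted p = 0.0584), UCMSC-Exos 2 (0.0587) or UCMSC-Exos 3 (0.0565), and with surrogate variables (0.121).

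The striated muscle members were seen in 1 library. Trim54, Trim55 and Trim63, the MuRF ligases of the sarcomere, were at 32.0, 11.3 and 31.6 CPM in untreated HFD 9, and Trim72, which seals torn muscle membranes, was at 67.9 CPM there. The highest value of the 4 in any other library was 1.17 CPM. Only Trim72 was tested, with a log2 fold change of -3.69 ± 1.32 (edgeR adjusted p = 0.0583). That value became 0.10 without untreated HFD 9, and -3.84 with an adjusted p of 0.0499 without untreated HFD 3. Trim16, which lacks a RING and works in the autophagy of damaged membranes, was likewise at 13.4 CPM in untreated HFD 9 and at 0.501 to 1.35 CPM in the other untreated libraries. Its log2 fold change was -1.78 ± 0.67 (edgeR adjusted p = 0.0654), -0.47 without untreated HFD 9, -1.92 without untreated HFD 5 (adjusted p = 0.0489) and -2.17 without UCMSC-Exos 9 (adjusted p = 0.024).

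Of 5 members that act on transcription and chromatin, 4 were tested and 0 passed in edgeR, DESeq2 or limma voom. None of the 4 had an unadjusted edgeR p under 0.05, and they had a median log2 fold change of 0.03. Trim28 (KAP1), the corepressor that KRAB zinc finger proteins bring to DNA, had 75.6, 82.3 and 141 CPM in untreated mice and 78.8, 87.8 and 94.8 CPM in UCMSC-Exos (log2 fold change -0.03 ± 0.10). Its highest value was that of untreated HFD 3, the library with pancreas transcripts. Among 8 partners of Trim28 in repression, Chd3, a helicase of the NuRD complex, rose from 134 ± 13.9 to 187 ± 28.4 CPM (log2 fold change 0.48 ± 0.09, edgeR adjusted p = 0.00153), while its paralog Chd4 fell (log2 fold change -0.24 ± 0.07, edgeR adjusted p = 0.0193). Chd4 lost its call with surrogate variables (log2 fold change -0.11, edgeR adjusted p = 0.136) and without the filter on low counts (0.0516). Cbx5, a heterochromatin protein, was lower by -0.26 ± 0.09 (edgeR adjusted p = 0.0448), a call lost in 16 of 27 alternatives, and the other 5 did not pass.

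Trim24, a coregulator of nuclear receptors whose loss in mice leads to liver tumours, split the treated group. It stood at 55.6, 66.6 and 67.9 CPM in UCMSC-Exos 1, 2 and 3 and at 23.4 to 35.6 CPM in the other 5 treated libraries, while untreated libraries ran from 31.9 to 46.4 CPM. The 3 high libraries lay above every untreated one, and the others within or below the untreated range. The group comparison gave a log2 fold change of 0.23 ± 0.19 (edgeR adjusted p = 0.409). The labels do not separate these 3 libraries from the rest.

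By domain structure, the RING members with a PRY-SPRY domain held 10 of the 12 falls and the 1 rise. Of these 35 members 23 were tested, with a median log2 fold change of -0.55. Of the NHL repeat members 3 were tested and 0 passed in edgeR or DESeq2, while Trim2 and Trim3 passed in limma voom: the neuronal ligase Trim2 had 32.7, 34.5 and 46.5 CPM in untreated mice and 34.1, 39.6 and 46.5 CPM in UCMSC-Exos (log2 fold change 0.13 ± 0.08), and Trim3 had 11.5, 20.9 and 24.8 against 13, 17.2 and 22.3 CPM (log2 fold change -0.22 ± 0.13). Trim3 passed without untreated HFD 3 (edgeR adjusted p = 0.0453). Trim46, which organises microtubules at the start of axons, was at 3.88 CPM in UCMSC-Exos 9 and at 0.419 to 1.61 CPM in the other treated libraries, and passed as lower without that library (log2 fold change -1.0, edgeR adjusted p = 0.0257). Of 5 members with another C-terminal domain, all tested, 0 passed in edgeR or DESeq2 and 1, Trim59, in limma voom. The centrosomal ligase Trim37 had a log2 fold change of -0.13 ± 0.08 and Trim23, which carries an ARF domain, one of 0.02 ± 0.10. Trim44, which lacks a RING and opposes ubiquitination, had 89.4, 97.3 and 112 CPM against 80.4, 89.0 and 107 CPM (log2 fold change -0.08 ± 0.06). Trim8, a regulator of NF-kB and STAT signalling, and Trim41 differed by -0.01 ± 0.07 and 0.07 ± 0.06 on the log2 scale.

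**Figure D5:**
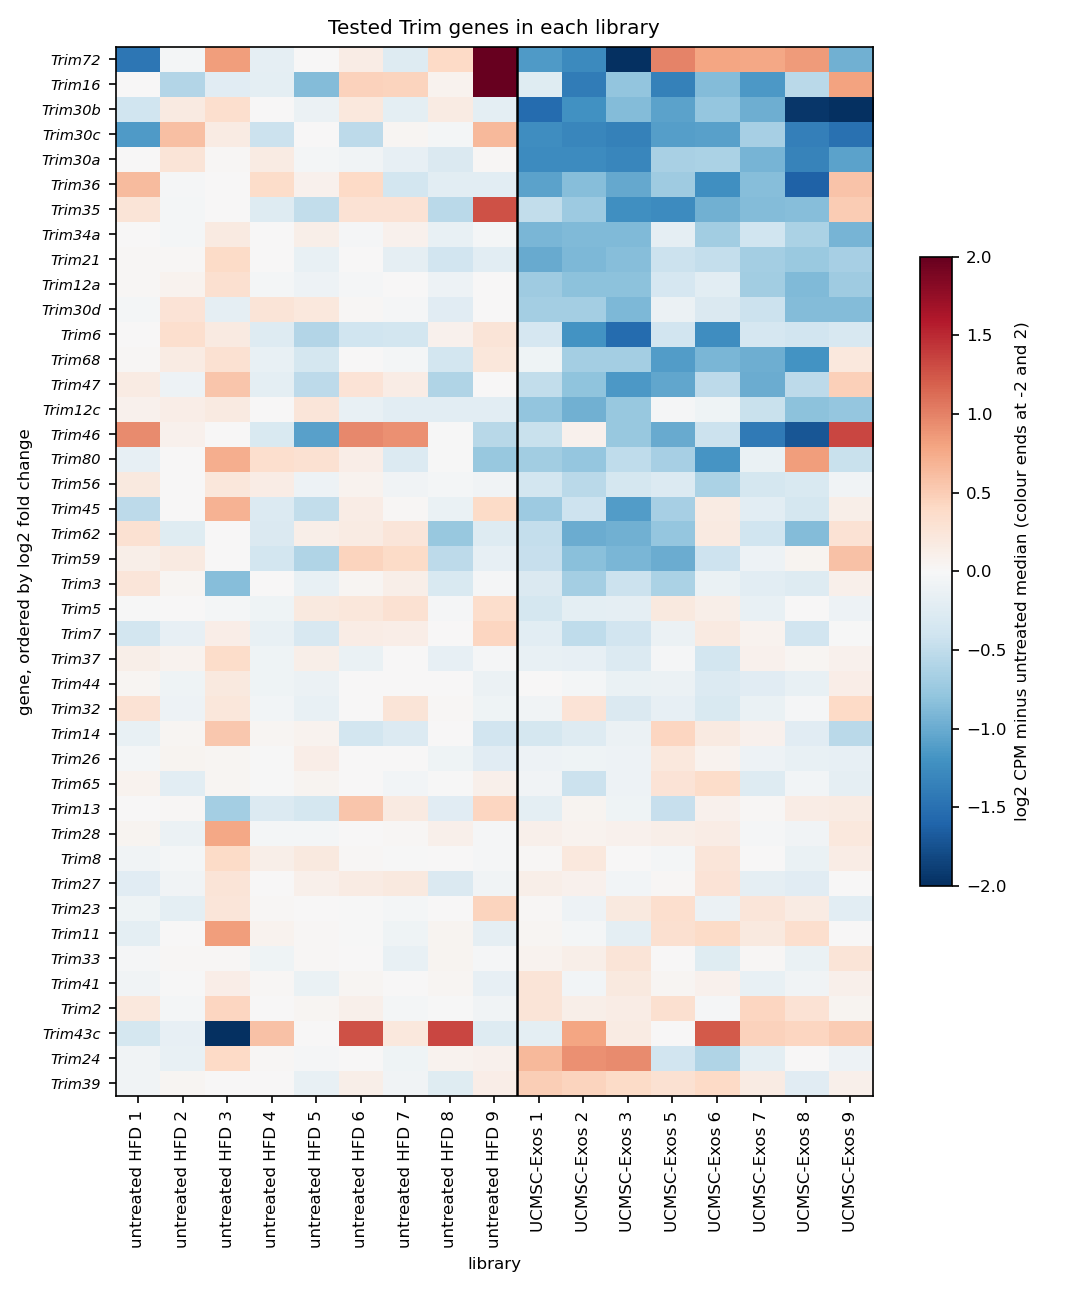
Log2 CPM of the 42 tested Trim genes in each of the 17 libraries, minus the gene's untreated median, with genes ordered by log2 fold change and the colour scale ending at -2 and 2; the vertical line parts untreated HFD from UCMSC-Exos. The rows of the Trim30 genes, Trim34a, Trim21 and Trim12a lie below 0 in all treated libraries, the Trim24 row is red in UCMSC-Exos 1 to 3, and the UCMSC-Exos 9 column is red for Trim36, Trim35, Trim68 and Trim47.

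The 25 members that were not tested had few reads in these livers. Trim52 and Trim61 had 0 reads, and apart from Trim54, Trim55 and Trim63 in untreated HFD 9 none of the others passed 24 reads in a library. They were the erythroid members Trim10 and Trim58, the epithelial members Trim15, Trim29, Trim31, Trim40 and Trim50, the neuronal Trim9 and Trim67, the chromatin reader Trim66, the interferon-linked Trim34b, and Trim17, Trim38, Trim42, Trim43a, Trim43b, Trim60, Trim69, Trim71 and Trim75. Trim10 stayed at or below 0.315 CPM although summed erythroid markers ran from 71.5 to 200 CPM in untreated mice and from 141 to 346 CPM in UCMSC-Exos.

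Genes that work with the family moved in part. Of 4 TRIM proteins with other names, Pml, the organiser of nuclear bodies, fell from 58.1 ± 5.18 to 43.5 ± 9.51 CPM (log2 fold change -0.42 ± 0.11, edgeR adjusted p = 0.0118), and Mid1, a microtubule-bound ligase, fell from 5.35 ± 1.08 to 3.47 ± 0.591 CPM without overlap (log2 fold change -0.62 ± 0.14, edgeR adjusted p = 0.00511). Mid2 and Mefv did not pass. Of 12 E1 and E2 enzymes, which supply RING ligases with activated ubiquitin, 0 passed in edgeR and 2 had an unadjusted p under 0.05. In DESeq2 and limma voom, 2 and 6 of them passed. The smallest edgeR p-values belonged to Ube2e3 (log2 fold change 0.14 ± 0.05, adjusted p = 0.0661, passing at 0.033 without untreated HFD 3) and Ube2d3 (0.19 ± 0.07, adjusted p = 0.0779, passing at 0.0122 without UCMSC-Exos 9).

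Upstream of the interferon-linked members, 9 receptor, kinase and factor genes are reported here, of which 2 were lower and 7 did not pass. Irf7, the transcription factor that amplifies type I interferon, averaged 370 ± 46.5 CPM in untreated mice (SD, n = 9) and 198 ± 58.8 CPM in UCMSC-Exos (SD, n = 8), a log2 fold change of -0.90 ± 0.15 (edgeR adjusted p = 0.000464). Stat2, which carries the receptor's signal to the ISRE, fell too, with a log2 fold change of -0.47 ± 0.11 (edgeR adjusted p = 0.00703). Of 9 matched kinases and adaptors of antiviral signalling, 1 passed, where 20.2% of all genes tested passed and 10.4% were lower. That gene was Traf3, a ligase of that pathway. It was lower by -0.21 ± 0.07 (edgeR adjusted p = 0.0327), a call lost in 12 of 27 alternatives.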

How the data were processed

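Liver RNA-seq counts per gene were compared between 9 untreated HFD and 8 UCMSC-Exos libraries; the study planned 9 mice for each, per the labels. The table's other per-sample column, 1 in number, fits no sample and stayed out. The authors counted reads with featureCounts 2.1.1 over GENCODE vM25 exons, per the file headers, in paired mode, without strand and without multi-mapping reads; the submitters' processing notes name fastp 1.3.3, HISAT2 2.2.1, featureCounts, Subread 2.0.2 and mm10. The counts were deposited without normalization. Of 55401 gene IDs, 55141 matched a symbol.

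The whole table was fitted in R 4.3.3 with edgeR 4.0.16: filterByExpr (minimum count 10), TMM scaling, a robust two-sided quasi-likelihood F test and Benjamini-Hochberg adjustment over all tested genes, at 0.05. CPM uses the effective library size, RPKM divides it by the exon length of the table, and the heat map uses a prior count of 2. The steps were tested on simulated counts.

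The members and all lists were chosen with earlier results of these data known. Named genes are all that passed, those not passing with the highest mean CPM in each class (2 each) or a log2 fold change of at least 1, all untested members, and up to 4 per related list; Trim5, Trim6, Trim47 and Gm16464 were named after their values were seen. Alternatives used sva 3.50.0, DESeq2 1.42.0 and limma 3.58.1. Promoter letters come from RefSeq.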

Additional observations from a re-analysis of the deposited data

Results flagged for a closer look

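In 21 of 90 groups of libraries, 1 library stood far from the others by Dixon's test. For independent, normally distributed values, chance gives this in about 1 in 20. The UCMSC-Exos groups of Trim54, Trim55 and Trim63, with almost no reads, are among the 90 but were not tested. In untreated HFD 3, the library with pancreas transcripts, 8 Trim genes were highest by such a gap: Trim28 at 141.2 CPM, Trim44 at 111.6, Trim11 at 53.36, Trim14 at 50.9, Trim24 at 46.37, Trim12a at 28.94, Trim37 at 25.75 and Trim21 at 24.48 CPM. In untreated HFD 9, the library with muscle transcripts, 6 were: Trim72 at 67.9 CPM, Trim35 at 54.35, Trim54 at 32.03, Trim63 at 31.55, Trim16 at 13.38 and Trim55 at 11.34 CPM. In UCMSC-Exos 9, the treated library with the highest cholangiocyte markers, 5 were: Trim35 at 31.83 CPM, Trim47 at 26.17, Trim46 at 3.879, Trim36 at 3.433 and Trim16 at 1.716 CPM. The other 2 were Trim30c at 1.711 CPM in UCMSC-Exos 7 and Trim80 at 2.737 CPM in UCMSC-Exos 8.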

How the results depend on the processing

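The 9 interferon-linked genes that fell kept their call in all 27 alternatives. With 3 surrogate variables 9 Trim genes were lower, 0 higher, and 1549 genes passed in all; with limma voom the counts were 19, 2 (Trim39 and Trim2) and 7711, against 12, 1 and 3274 as reported. Leaving out 1 library gave 9 to 16 lower, 0 to 1 higher and, over all genes, 2005 (without UCMSC-Exos 3) to 5823 (without UCMSC-Exos 9); the 0 came without UCMSC-Exos 1, 2 or 3. Without the filter on low counts, 11 of 65 Trim genes were lower: Trim36, Trim68 and Trim35 lost their call, as they did with surrogate variables, and Trim34b and Trim67, with at most 13 and 9 reads in a library, gained one; without untreated HFD 3 and 9 there were 10. No alternative turned the direction of a call. Deviations of same-numbered libraries from their group means had correlations of -0.17 to 0.24. The labels do not state that the numbers pair mice, and these correlations cannot decide it. With the replicate number as a block over 8 pairs, 13 Trim genes were lower, Trim16 among them, 1 was higher, and 3029 genes passed. Of the 25 members that the filter on low counts left out, 22 had under 25 reads in every library, and their changes rest on few reads.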
